A study of Mus musculus with 2 samples.

Results

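*Cyp2e1* and 6 other genes that WNT signalling is known to drive around the central vein of the liver (*Glul*, *Oat*, *Slc1a2*, *Rhbg*, *Lect2* and *Cyp1a2*) were followed in the newborn mouse ureter. They are 7 of the 29924 gene names on the array and hold 10 of its 39429 probes, all of which are accounted for here. The genes were chosen by name with the response of *Cyp2e1* in these samples already known, so their ratios are a description and carry no test. Ureters of wild-type NMRI pups at postnatal day 0 were cultured for 18 h with 5 µM IWP-2, which inhibits the WNT acyltransferase PORCN, or with the solvent DMSO. RNA of an IWP-2 pool and a control pool was compared on each of 2 two-colour Agilent arrays, the first with female ureters and IWP-2 in the red channel and the second with male ureters and IWP-2 in the green channel. Each channel held 1 pool of 5 to 6 ureters, with 1 array per sex, so that sex and dye orientation cannot be told apart and precision is limited to what 2 arrays give. Signals are background-corrected intensities after loess normalization within the array, and ratios are log2 of IWP-2 over control. About 68% of the probes were well above background in the control channels, and *Xist* and 4 Y-linked transcripts lay on the side given by the labelled sex in both channels of both arrays.

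In the liver, hepatocytes differ in function along the path of the blood. WNT ligands and R-spondin from endothelial cells of the central vein activate β-catenin in the nearest hepatocytes, which then express enzymes of drug oxidation and of glutamine synthesis, whereas hepatocytes near the portal vein carry out urea synthesis and gluconeogenesis. *Cyp2e1* encodes a cytochrome P450 that oxidizes ethanol and small solvents, *Glul* encodes glutamine synthetase, and both are classical pericentral marker genes.

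*Cyp2e1* was the member with a large ratio, so the sequences behind it are shown. The array held a pair of *Cyp2e1* probes, both of 60 bases on the plus strand of chromosome 7 and both assigned to NM_021282 in the array files, with starts 3706 bases apart in the mm9 build. The upstream probe, A_55_P1966690, lies at chr7:147956922-147956981 and gave the larger ratio. It is followed here by the 250 bases before the annotated start of *Cyp2e1* and, for comparison, of *Glul*, both from RefSeq on GRCm38.p6, at chr7:140763569-140763818 and chr1:153899679-153899928 on the plus strand. Capitals mark CTTTGA, the core letters bound by TCF/LEF factors, which are the DNA-binding partners of β-catenin.
Cyp2e1 probe A_55_P1966690: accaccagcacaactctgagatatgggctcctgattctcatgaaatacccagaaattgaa
Cyp2e1 promoter: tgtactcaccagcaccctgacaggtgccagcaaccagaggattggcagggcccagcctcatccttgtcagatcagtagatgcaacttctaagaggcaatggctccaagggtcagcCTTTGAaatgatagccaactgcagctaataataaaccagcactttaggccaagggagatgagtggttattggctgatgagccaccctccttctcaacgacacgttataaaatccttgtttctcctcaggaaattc
Glul promoter: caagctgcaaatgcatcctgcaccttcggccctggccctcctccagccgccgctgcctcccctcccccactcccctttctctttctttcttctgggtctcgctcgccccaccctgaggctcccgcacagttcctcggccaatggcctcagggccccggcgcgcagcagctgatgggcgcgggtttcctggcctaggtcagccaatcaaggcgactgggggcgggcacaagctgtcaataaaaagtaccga

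The promoter windows, which run from 250 bases before to 50 bases after the start, were found for 6 of the 7 members, without *Rhbg*. CTTTGA was searched on both strands. It occurred once in the *Cyp2e1* window, 135 bases before the start, and 0 times in those of *Glul* and *Oat*. Among the members that were not detected, *Slc1a2* held 2 matches and *Lect2* and *Cyp1a2* held 1 each. Of 32817 RefSeq promoter windows, 16% held the motif. GCGTG, the core of the site of the aryl hydrocarbon receptor AHR, was also searched on both strands. It was found once, in the window of *Lect2* and without overlap with CTTTGA there, against 32.4% of all windows. The *Glul* and *Oat* windows were rich in G and C, with 64.3% and 61.7% and with 17 and 22 CG pairs, while that of *Cyp2e1* had 49.7% and 4 CG pairs beside medians of 52.7% and 7 over all windows. A match is a description of the letters, and binding was not measured.

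*Cyp2e1* was lower in the IWP-2 pools of both sexes, by more than 10-fold with either probe. The downstream probe, A_55_P1999301 at chr7:147960628-147960687, gave a signal of 763 in the female and 713 in the male control pool, and of 64.4 and 59.7 in the corresponding IWP-2 pools. Both IWP-2 pools lay far below both control pools and still well above background, where the lowest signals so called were between 3.20 and 4.39. The log2 ratios were −3.57 and −3.58, a mean of −3.57 ± 0.0076 (SD, n = 2 arrays) or 11.9-fold. The upstream probe gave 463 and 382 in the control pools and 23.1 and 16.0 in the IWP-2 pools, with log2 ratios of −4.32 in the female and −4.58 in the male pair. Its mean was −4.45 ± 0.18 (SD, n = 2 arrays) or 21.8-fold. The groups did not overlap with either probe. How many other probes were separated in this way was not counted, and with 2 pools per group nothing is read from it. Single spots did not overlap either, but they are repeats on the same 2 arrays. All 4 spots per probe and array were measured, and their log2 ratios ran from −3.72 to −3.39 and from −3.63 to −3.55 with the downstream probe, and from −4.36 to −4.29 and from −4.67 to −4.48 with the upstream probe. The 2 probes therefore gave ratios that differed by 0.75 in the female and 1.00 in the male array, beyond the spread of their spots, and the size of the change is known only to within this difference. Among the 26849 probes well above background in at least 1 condition, with signals floored at 15, the upstream probe had the lowest mean ratio. The downstream probe ranked 3. The floor makes the ratios of dimmer probes smaller, and *Cyp2e1* was chosen with its ratio known, so nothing is read from these ranks. In a bulk sample fewer cells with *Cyp2e1* RNA and less of it per cell cannot be told apart.

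**Figure D1:**
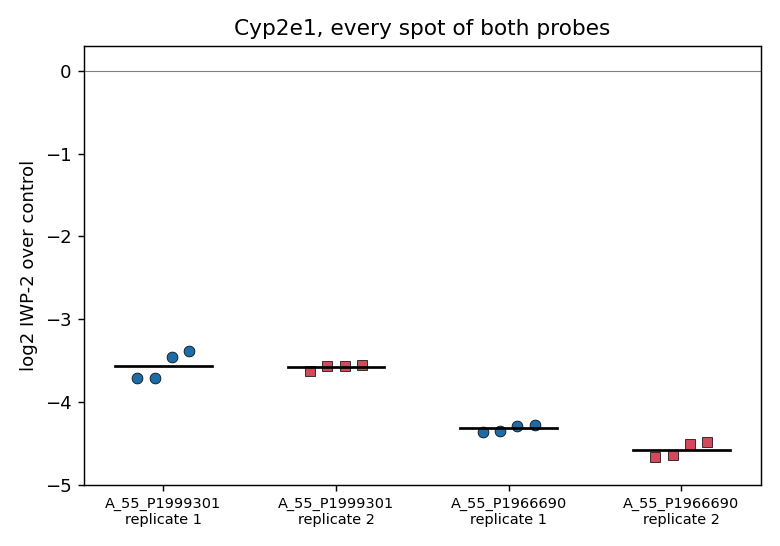
Log2 IWP-2 over control of each spot (points) of the 2 Cyp2e1 probes on the female (circles) and male (squares) array, with the value of the probe on that array as a line. The downstream probe A_55_P1999301 sits at −3.57 and −3.58, and every spot of the upstream probe A_55_P1966690 lies lower.

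The genes of glutamine, ornithine and ammonium handling did not follow *Cyp2e1*. *Glul*, which makes glutamine from glutamate and ammonium, gave 4154 and 4376 in the female and male control pools and 3869 and 4189 in the IWP-2 pools. Both pairs were slightly lower with IWP-2, with log2 ratios of −0.10 and −0.06 (mean −0.08 ± 0.028, SD, n = 2 arrays), but the male IWP-2 pool was above the female control pool, so that the groups overlapped. A mean at least as far from 0 was common, since 36.4% of the tested genes had a larger one. *Oat*, the ornithine aminotransferase that links ornithine to glutamate, gave 4832 and 4529 in the control pools and 4524 and 4676 in the IWP-2 pools. Its ratio was −0.10 in the female and 0.05 in the male array, with no common direction. *Rhbg*, an ammonium transporter of the Rhesus family, gave 118 and 139 in the control pools and 138 and 135 in the IWP-2 pools. Its ratios of 0.23 and −0.04 again had opposite signs (mean 0.09 ± 0.19, SD, n = 2 arrays). The order of the mean ratios was *Cyp2e1*, *Glul*, *Oat* and *Rhbg*, and the last 3 differed from each other by less than the SD of *Rhbg* over the arrays.

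*Slc1a2*, which encodes a glutamate transporter, and *Lect2* and *Cyp1a2*, which encode a secreted hepatocyte protein and a P450 of drug and hormone oxidation, were not well above background, by a majority of spots, in both pools of either condition. The brightest of the 3 *Slc1a2* probes gave 3.77 and 5.23 in the control pools and 3.71 and 6.25 in the IWP-2 pools, and the other *Slc1a2* probes stayed between 0.84 and 1.30. Spots of that brightest probe called above background numbered 1 and 2 of 4 in the control channels and 0 and 4 of 4 in the IWP-2 channels, so that only the male IWP-2 pool had a majority. *Lect2* lay between 0.82 and 1.03 and *Cyp1a2* between 0.85 and 0.95 in the 4 channels, with 0 spots above background. No fold is given for these 3 genes. Of the 7 members, 4 were well above background in both control pools, a share of 57.1% beside 65.5% of all gene names. The same 4 passed the filter of a mean signal over 100, as did 14336 of the 29924 gene names. Of these 4, 1, *Cyp2e1*, also met a fold criterion modelled on the study's filter. It asked for a control signal over 100 and a fold of 1.5, required here in both arrays. Of 14051 eligible genes, 0.363% met it as lower and 0.0783% as higher. Since *Cyp2e1* was included for this ratio, nothing is read from that count.

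**Figure D2:**
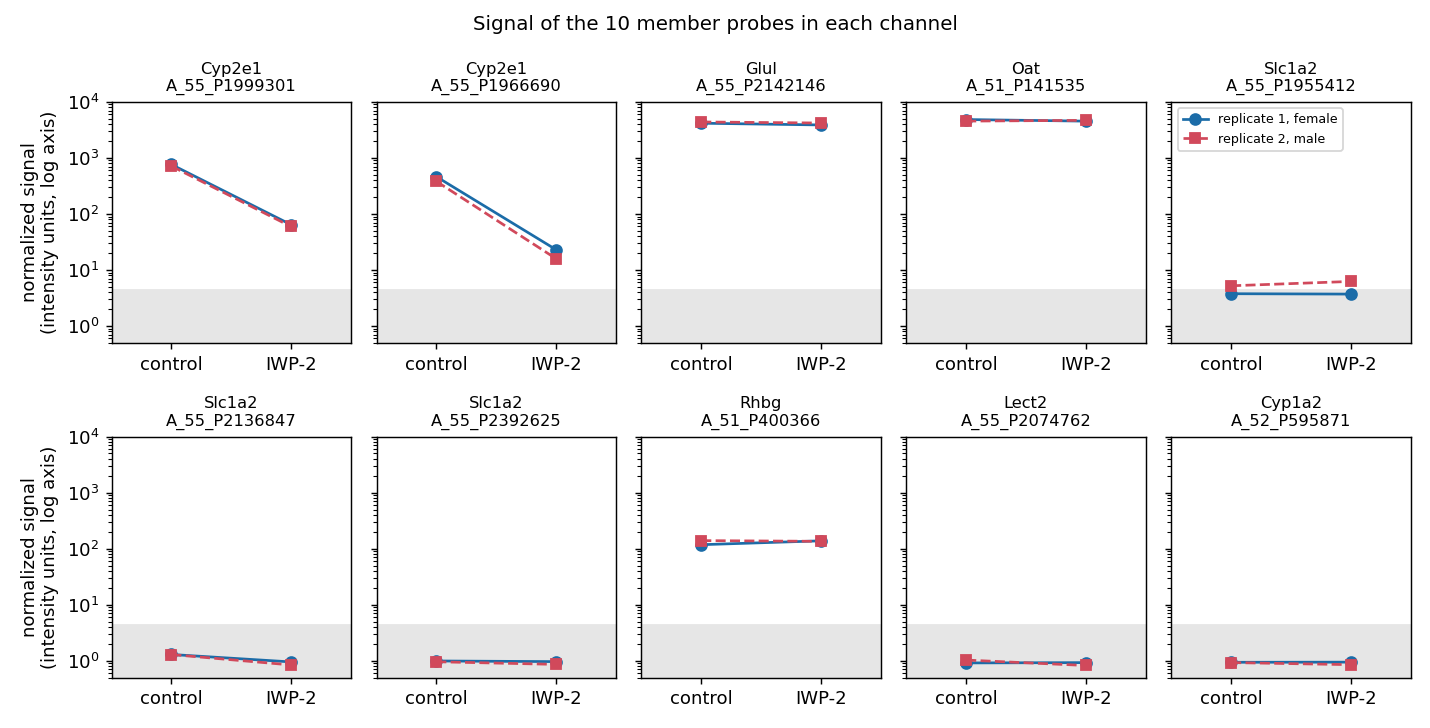
Normalized signal (log axis, intensity units) of the 10 member probes in the control and IWP-2 pools, one panel per probe, with replicate 1 (female) as circles and replicate 2 (male) as squares. The grey band reaches up to 4.39, the highest of the lowest signals called well above background in the 4 channels, and the steep lines are those of the 2 Cyp2e1 probes alone; levels are not comparable between panels.

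The wider pericentral programme was detected slightly less often than gene names in general. Of 23 further genes of pericentral metabolism on the array, 13 were well above background in both control pools, a share of 56.5% beside 65.5% of all gene names. *Cyp2c29*, *Cyp3a11* and *Cyp7a1*, the rate-limiting enzyme of bile acid synthesis, were among those with signals under 4. Limma, fitted over all 14336 genes with a mean signal over 100, called 127 lower (0.886%) and 52 higher (0.363%) at an adjusted p under 0.05. With median centring in place of loess the split was 108 lower and 85 higher. With loess, 952 of all 14336 tested genes were lower and 899 higher at an unadjusted limma p under 0.05. Limma called 0 of the 10 tested pericentral genes, with 0 past the fold criterion. At an unadjusted p under 0.05 they held 3 lower and 3 higher, a larger share than among all tested genes. Their median of −0.02 lay beside −0.01 for all tested genes. The lowest was the amino acid transporter *Slc16a10* (−0.35, limma adjusted p = 0.138). The highest were the glutathione transferases *Gsta3* (0.30, limma adjusted p = 0.124) and *Gstm1* (0.30, limma adjusted p = 0.133).

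Of 18 genes of the opposite, periportal set 12 were above background and 6 were tested, with a median of −0.07. Limma called 0 lower and 1 higher, *Fbp1*, which encodes fructose-bisphosphatase of gluconeogenesis. *Fbp1* gave 123 and 139 in the control pools and 233 and 232 in the IWP-2 pools, a mean log2 ratio of 0.83 (standard error 0.075, limma adjusted p = 0.00884). Both IWP-2 pools were higher than both control pools, but with the 4 channels fitted as separate samples, without the pairing on the array, its adjusted p was 0.199. Of the urea cycle genes, *Cps1* and *Otc* gave signals under 10 in every channel. In the control pools *Ass1* gave 647 and 927, *Asl* 1590 and 1598, and *Arg1* 101 and 106. The other extremes were *Gldc* (0.21, limma adjusted p = 0.428), *Arg1* (−0.26, limma adjusted p = 0.205) and *Pigr* (−0.13, limma adjusted p = 0.916). Around *Glul* and *Oat*, 18 genes of glutamate and ammonium metabolism were tested. Limma called 0 of them, with 2 lower and 1 higher at an unadjusted p under 0.05 and 0 past the fold criterion, and the median was −0.02. Their range ran from *Aldh4a1* (−0.26, limma adjusted p = 0.154) and *Pycr1* (−0.19, limma adjusted p = 0.294), enzymes of proline metabolism, to *Arg2* (0.15, limma adjusted p = 0.574) and *Got1* (0.21, limma adjusted p = 0.245).

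Most of the tested genes that report WNT signalling in many tissues, and in pericentral hepatocytes too, were lower. All 10 on the list were detected, 8 were tested and limma called 7 lower and 0 higher, with a median of −0.83. The strongest were *Lgr5*, an R-spondin receptor (−3.13, limma adjusted p = 1.61e-05), the feedback inhibitor *Axin2* (−1.91, limma adjusted p = 0.000826) and *Tcf7*, a TCF/LEF factor (−1.36, limma adjusted p = 0.000685). The mean log2 ratio was −0.69 for the WNT deacylase *Notum*, −0.79 for the inhibitor *Nkd1*, −0.80 for the ubiquitin ligase *Rnf43* and −0.86 for the vasopressin receptor *Avpr1a*, with limma adjusted p-values from 0.00809 (*Rnf43*) to 0.0186 (*Nkd1*). The last of the 8, *Tbx3*, had −0.18 (limma adjusted p = 0.373), and the other genes were too dim to be tested. Of these, *Sp5* gave 91.6 and 78.3 in the control pools and 18.5 and 19.5 in the IWP-2 pools, and *Znrf3* gave 14.9 and 18.3 in the control pools and 13.5 and 11.6 in the IWP-2 pools, at or near the floor of 15. Earlier results of these samples were known when the list was written, so it is not independent evidence of its direction. Without the pairing limma called 2 of the 8, and without a filter on signal it called 0 genes of any kind, with 2029 at an unadjusted p under 0.05. Second probes of *Tcf7* (−0.93) and *Nkd1* (−0.75) were also lower, while those of *Axin2* (−0.32) and *Lgr5* lay at or near the floor of 15.

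**Figure D3:**
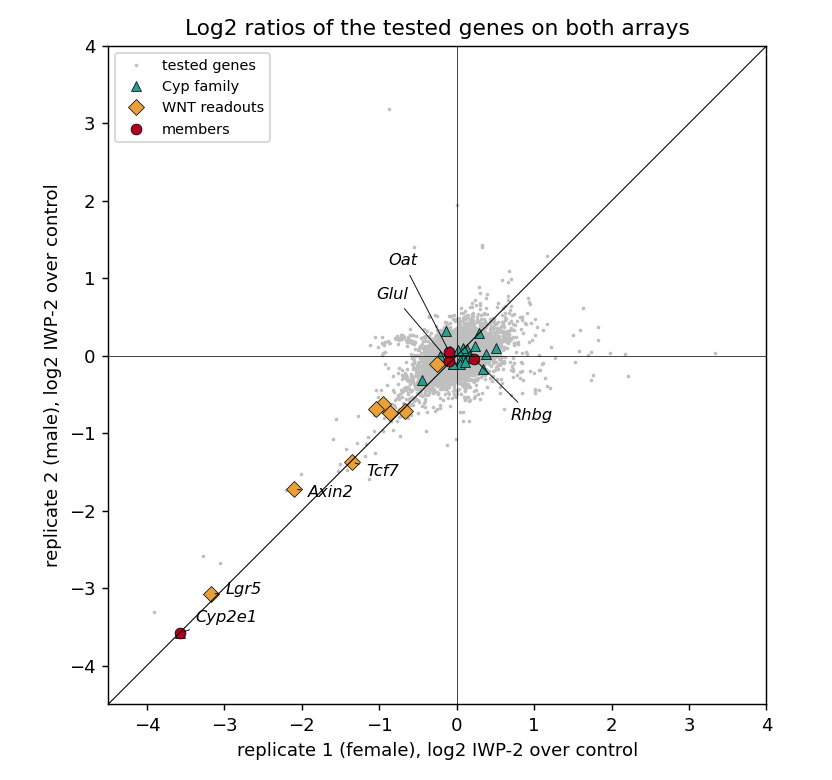
Log2 IWP-2 over control on the female (x axis) and male (y axis) array for the tested genes (grey), with the tested members, WNT readouts and Cyp family genes marked. Cyp2e1 (−3.57, −3.58) and Lgr5 (−3.17, −3.08) lie together far down the diagonal, and Glul, Oat and Rhbg lie in the central cloud.

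By the Euclidean distance of the log2 ratios on the 2 arrays, the tested genes most like *Cyp2e1* were *Ibsp* (distance 0.43), *Lgr5* (0.64), *Mc5r* (1.03), *Notumos* (1.04) and *Tbx4* (2.29). Their ratios were −3.91 and −3.31 for *Ibsp*, which encodes bone sialoprotein, −3.27 and −2.59 for the melanocortin receptor gene *Mc5r*, −3.05 and −2.67 for *Notumos*, named for its position opposite *Notum*, and −2.21 and −1.73 for *Tbx4*. The IWP-2 signals of *Notumos* in both arrays, of *Lgr5* in the female and of *Ibsp* in the male array were under the floor of 15, which makes those ratios smaller than the signals alone would give. With 2 arrays the likeness rests on 2 values per gene.

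Of the 10 ligands, receptors and partners that set pericentral identity in liver, 8 were tested. The others, *Wnt2* and *Wnt9b*, the ligands of the central vein endothelium, were not well above background in the control pools, with signals under 8 in every channel, and *Wnt2* was called above background in the IWP-2 pools, at 5.89 and 6.02. Limma called 0 of the 8 tested niche and receptor genes, with 1 lower and 2 higher at an unadjusted p under 0.05, 0 past the fold criterion and a median of −0.03. *Rspo3*, the R-spondin of the central vein, went from 1399 and 1057 in the control pools to 903 and 853 in the IWP-2 pools (−0.47, limma adjusted p = 0.0828). *Wls*, needed for WNT secretion, had −0.08 (limma adjusted p = 0.816), and the highest values were those of *Fzd4* (0.24, limma adjusted p = 0.177) and *Lrp6* (0.17, limma adjusted p = 0.338).

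**Figure D4:**
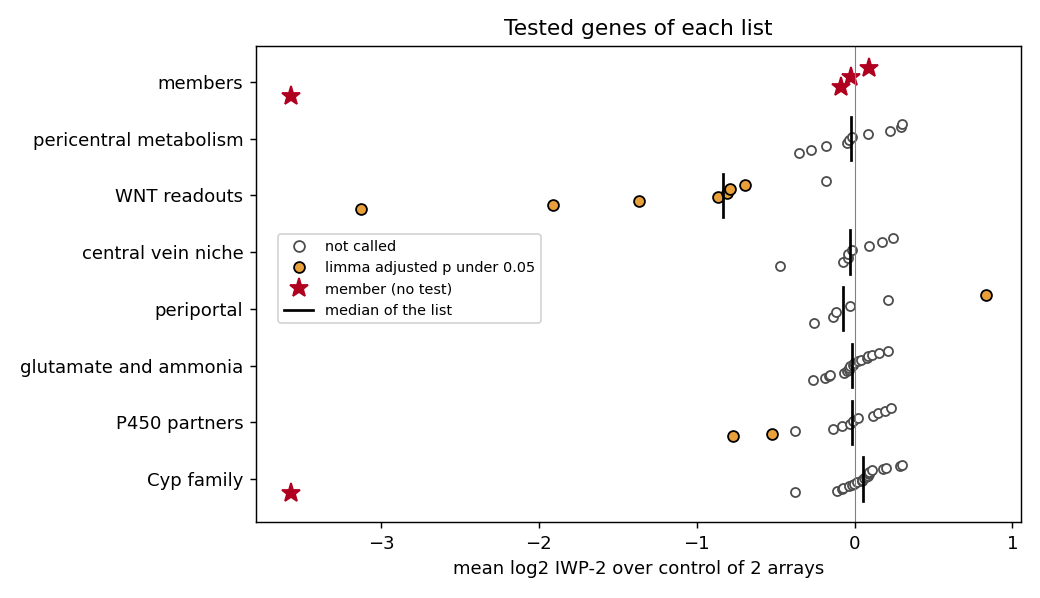
Mean log2 IWP-2 over control of 2 arrays (x axis) for the tested genes of each list, with limma calls filled, list medians as bars and the members, which carry no test, as stars. Cyp2e1 at −3.57 stands alone among the members and in the Cyp family, and the called genes are mainly the 7 WNT readouts.

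Among the P450 genes detected in the ureter, the large ratio of *Cyp2e1* was not shared. Of 98 *Cyp* genes on the array 44 were above background in both control pools, a share of 44.9%, and 22 were tested. Leaving *Cyp2e1* aside, limma called 0 of the other 21, with 1 lower and 3 higher at an unadjusted p under 0.05 and 0 past the fold criterion. The median of the 22 tested genes was 0.05, and the highest of them were *Cyp4f15* (0.30, limma adjusted p = 0.276) and *Cyp2j9* (0.29, limma adjusted p = 0.123). The lowest of the tested genes after *Cyp2e1* were *Cyp1b1* (−0.38, limma adjusted p = 0.0772) and *Cyp7b1* (−0.11, limma adjusted p = 0.734). Among the detected genes too dim to be tested, 3 were singled out after their values were seen. *Cyp1a1*, of the same subfamily as *Cyp1a2*, gave 31.4 and 17.0 in the control pools and 79.2 and 60.2 in the IWP-2 pools, higher in both pairs. *Cyp2c44* gave 31.1 and 25.2 in the control pools and 19.3 and 19.4 in the IWP-2 pools, and *Cyp4b1* gave 33.6 and 30.9 against 21.6 and 23.9, both lower in both pairs.

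P450 enzymes need partner proteins and are under the control of nuclear receptors and of AHR. Among 12 tested partners and regulators limma called 2 lower and 0 higher, with 3 lower and 2 higher at an unadjusted p under 0.05, and the median was −0.02. Both are of the AHR pathway, *Ahr* itself (−0.77, limma adjusted p = 0.0392) and its repressor *Ahrr* (−0.52, limma adjusted p = 0.0373). Without normalization within the array the limma adjusted p rose to 0.0606 for *Ahr* and 0.0556 for *Ahrr*. A second *Ahr* probe gave −0.19 and a second *Ahrr* probe, near the floor of 15, gave −0.21. Other AHR partners and targets on the list were not called. *Cyp1b1* had −0.38, *Arnt* −0.08, *Tiparp* −0.03 and *Nqo1* 0.23. *Cyp1a1*, too dim to be tested, was higher on both arrays (1.34 and 1.83). No common direction of the pathway is read from these values. *Por*, the reductase that feeds electrons to all microsomal P450s, had −0.01 (limma adjusted p = 0.996).

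The samples held the cell types of the ureter, and the hepatocyte markers were mixed. All 8 urothelial, 6 smooth muscle and 5 lamina propria markers were detected in the control pools. Limma called 0 of the 8 urothelial markers, with 0 lower and 6 higher at an unadjusted p under 0.05. Of all 14336 tested genes, 899 were higher at that threshold. Limma also called 0 of the 6 smooth muscle markers, with 0 lower and 1 higher at that threshold. It called 1 of the 5 lamina propria markers, *Aldh1a2* (−0.63, limma adjusted p = 0.0281). Of 12 hepatocyte markers 6 were above background in both control pools, a share of 50% beside 65.5% of all gene names. *Alb*, *Apoa1* and *Apob* gave signals under 1.2 in every channel, while *Afp* gave 38.9 and 39.4 in the control pools. The summed signal of the list, most of it *Ttr*, was 847 and 935 in the control pools and 1432 and 1207 in the IWP-2 pools. *Ttr* had a mean log2 ratio of 0.65 (limma adjusted p = 0.0634), and *Ahsg*, too dim to be tested, gave 51.4 and 35.3 in the control pools and 28.8 and 26.9 in the IWP-2 pools. Of 8 kidney tubule markers 2 (25%) were above background in both control pools. The sum over this list was 45.5 and 120 in the control pools and 29.3 and 140 in the IWP-2 pools, higher in both male pools. Of 8 adipocyte markers 6 (75%) were detected, with sums of 17610 and 18800 in the control and 21520 and 23000 in the IWP-2 pools. Most of each sum was *Fabp4* and *Pparg*. *Plin1* gave 23.1 and 11.4 in the control pools, and *Lep* and *Cidec* gave signals under 8 in every channel. Limma called 0 of the 4 tested adipocyte markers, with 0 lower and 2 higher at an unadjusted p under 0.05 and 0 past the fold criterion. Their log2 ratios in the female and male pair were 0.25 and 0.28 for *Fabp4*, 0.45 and 0.26 for *Pparg*, −0.55 and 1.40 for *Adipoq* and −0.87 and 3.19 for *Cfd*. The part of liver, kidney or fat tissue in the *Cyp2e1* signal and its ratio was not tested.

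Of the genes beside *Cyp2e1* on chromosome 7, those that were tested gave no change of this size. On one side the olfactory receptor genes *Olfr541*, *Olfr45* and *Olfr539* were not above background. On the other side *Syce1* lay under 10 in every channel, and the next genes, *Zfp941* (0.02, limma adjusted p = 0.99) and *Urah* (0.26, limma adjusted p = 0.269), were detected and not called. A lowering of the olfactory receptor genes or *Syce1* could not have been seen at such signals.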

How the data were processed

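RNA of P0 ureter pools was hybridized on 2 two-colour arrays. The authors deposited scanner intensities, processed by Agilent Feature Extraction, which subtracts the background and normalizes the dyes. The submitters' notes name version 10.7.3.1 and the file headers 12.2.0.7. The deposited log10 ratio served to check the direction, and the deposited series table holds a score, a signed fold per probe. Control spots and flagged spots were left out. Processed signals were normalized by loess within each array (limma 3.58.1, R 4.3.3), averaged over spots, floored at 15 for fits, and expressed as log2 by calculation from the deposited intensities. Member signals are given without the floor. The brightest probe represented a gene. Genes with a mean signal over 100 in at least 1 condition entered a limma fit of the ratio (lmFit, eBayes, 1 residual degree of freedom), and p-values were adjusted by Benjamini-Hochberg over all of them. The pools of a replicate share an array, so the ratio pairs them. A p-value rests on the spread of each gene between these 2 arrays, moderated by eBayes with that of all tested genes. It covers no variation beyond these 2 arrays. The steps were tested on simulated data. The authors filtered on a control intensity over 100 and a fold of 1.5. Their methods do not say whether both arrays had to meet it, though their supplement separates genes significant in all pools from others. Here both arrays were required.

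The members and all gene lists were chosen with earlier results of these data known. Named are all members, list genes that limma called, the 2 highest and 2 lowest others of a list with fewer than 2 calls, and the 5 genes nearest to *Cyp2e1*. *Cyp1a1*, *Cyp2c44*, *Cyp4b1*, *Sp5*, *Znrf3*, *Ahsg*, *Por*, *Arnt*, *Tiparp*, *Nqo1*, *Ass1*, *Asl* and the other genes named as undetected or as markers were added after their values were seen. The alternatives tried are given with their effects below. Some results of the rule are not reported here. Unused columns of sample values numbered 0.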

Additional observations from a re-analysis of the deposited data

Results flagged for a closer look

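The ratios of *Oat* and *Rhbg* had opposite signs on the 2 arrays. For *Oat* the female minus male difference of the log2 ratio was −0.14, and for *Rhbg* it was 0.27. With 1 array per sex the difference was not tested, and sex, dye orientation and pool cannot be told apart.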

How the results depend on the processing

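Both *Cyp2e1* probes stayed below −3.2 on the log2 scale under every alternative run. *Glul* stayed below 0, while *Oat* changed sign with median centring (0.02) and, like *Rhbg*, with 1 array alone (−0.10 to 0.05 for *Oat*, −0.04 to 0.23 for *Rhbg*). The downstream probe had −3.53 with median centring, −3.30 with normexp and −3.58 in the deposited series table, and the upstream probe had −3.70 with normexp. *Glul* had −0.0386 with median centring and −0.14 in the series table. Limma's lower calls, 127 in all, were 248 with normexp, 8 without the replicate block (the 4 channels unpaired), 50 with the mean over probes, and 0 without a filter on signal or with well above background in its place. Its higher calls, 52 in all, were 32 without within-array normalization, 85 with median centring, 154 with normexp, 0 without the replicate block, 17 with the mean over probes, and 0 under both other filters. At an unadjusted p under 0.05 these settings with 0 calls held 403 higher genes (no block), 2029 genes (no filter) and 2132 genes (well above background). The cause was not tested.

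The fold criterion, met by 51 lower and 11 higher genes, gave 89 and 25 under both other filters, and with 1 array alone 78 to 160 lower and 25 to 112 higher. The WNT readouts called lower were 2 without the replicate block, 0 under both other filters and 4 with the mean over probes. *Fbp1*, the 1 periportal gene called higher, was lost without the replicate block and under both other filters (0). The AHR pathway genes called lower were 0 without within-array normalization, without the replicate block, under both other filters and with the mean over probes. The P450 family, counted here with *Cyp2e1*, had 2 lower and 2 higher with normexp and 0 lower under both other filters. *Cyp2e1* is its 1 lower gene in the main run. As it was chosen for this ratio, nothing is read from its calls. Normexp also called 1 niche gene lower, 1 glutamate gene higher and 1 P450 partner higher. No ratios are given for *Slc1a2*, *Lect2* and *Cyp1a2*, since their probes were not well above background in both pools of either condition.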
